A study of Mus musculus with 9 samples.

Results

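Cell cycle and DNA replication genes encode the cyclins, cyclin-dependent kinases (CDKs), CDK inhibitors, replication factors and mitotic proteins that take a cell through division. A list of 44 mouse genes was followed on expression arrays of the small intestine by taking every probe set, the array's unit of measurement for a transcript, that is annotated to exactly 1 of these genes. This gave 100 of 45037 probe sets and 43 of the 44 genes. Ccnb1 had no such probe set and is not analysed here. Of the 100 probe sets, 84 passed a filter on low values that does not look at groups, and they covered 42 genes, against 29307 probe sets and 13830 genes tested in all. The 4 probe sets of Tyms, which encodes the enzyme of thymidylate synthesis, lay between 4.03 and 5.17 on the log2 scale and did not pass. The rule for members uses gene names and no measured value.

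Mice with Cre-mediated deletion of Gata4, which encodes a GATA-family transcription factor active in duodenum and jejunum, were set beside controls. Mutant jejunum (n = 3) came from animals with 1 loxP-flanked and 1 null allele of Gata4. Control ileum (n = 3) and control jejunum (n = 3) came from animals with 1 loxP-flanked and 1 wild-type allele. All 9 animals carried a villin-Cre transgene, which is expressed in the intestinal epithelium, so the flanked allele met Cre in controls too and other layers of the gut wall kept it. The mice were independent males of 6 to 8 weeks, with 1 array each. Jejunum was taken 10 cm beyond the pylorus and ileum 1 cm before the cecum, and the labels do not say which layers of the wall entered the RNA. Levels below are quantile-normalized log2(intensity + 16), on which 4 is the lowest possible value before scaling. A difference of 1 is a doubling of that sum, so changes of dim probe sets come out too small.

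Gata4 itself stood at 9.61, 9.51 and 9.38 in the mutant jejunum arrays, at 5.64, 5.30 and 5.20 in the control ileum arrays and at 9.57, 9.49 and 9.52 in the control jejunum arrays (1418863_at). The mutant and control jejunum arrays thus overlapped for this probe set, and the ileum arrays lay far below. Its second probe set (1418864_at) stood at 8.47, 8.29 and 7.91 in the mutant jejunum arrays and at 8.07, 7.30 and 7.34 in the control jejunum arrays. The labels do not place these probes relative to the deleted part, so Gata4 does not check the mutant labels.

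The intestinal epithelium divides in the crypts. Stem cells and their transit-amplifying daughters cycle there, and cells leave the cycle as they move onto the villus. In late G1 phase, D-type and E-type cyclins with their kinases release E2F transcription factors, which turn on the replication genes. From S phase to mitosis, cyclins A and B, Cdk1, Polo-like and Aurora kinases and the spindle checkpoint act in turn. Many of their genes are read from promoters with CCAAT elements and with CHR elements, which the DREAM complex, B-Myb and FoxM1 use. The arrays measured RNA of bulk tissue, in which fewer cycling cells and less RNA per cycling cell cannot be told apart.

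The letters in the members' promoters were counted by role. RefSeq promoter windows (GRCm38.p6, 250 bases before to 50 bases after the start of transcription) were matched by symbol for 35 of the 44 genes, which have 38 windows. The E2F motif was searched as TTTCCCGC, TTTCGCGC, TTTGCCGC or TTTGGCGC, the CHR motif as TTTGAA, the NF-Y motif as CCAAT and, as a comparison, the TATA motif as TATAAA, each on both strands and with overlaps between motifs allowed. The E2F letters were in 8 of 38 member windows (21.1%), against 2.26% of all 32851 windows, and 6 of these 8 belonged to the 9 windows of the licensing and helicase genes. The CHR letters were in 13 of 38 (34.2%), against 17.9% of all windows, with 4 of 5 windows of the S, G2 and M cyclins and kinases and 5 of 8 of the spindle genes. CCAAT was in 27 of 38 (71.1%), against 37.4%, and TATAAA in 1 of 38 (2.63%), against 13.6%. A match is a run of letters in a window, not a bound site.

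**Figure D1:**
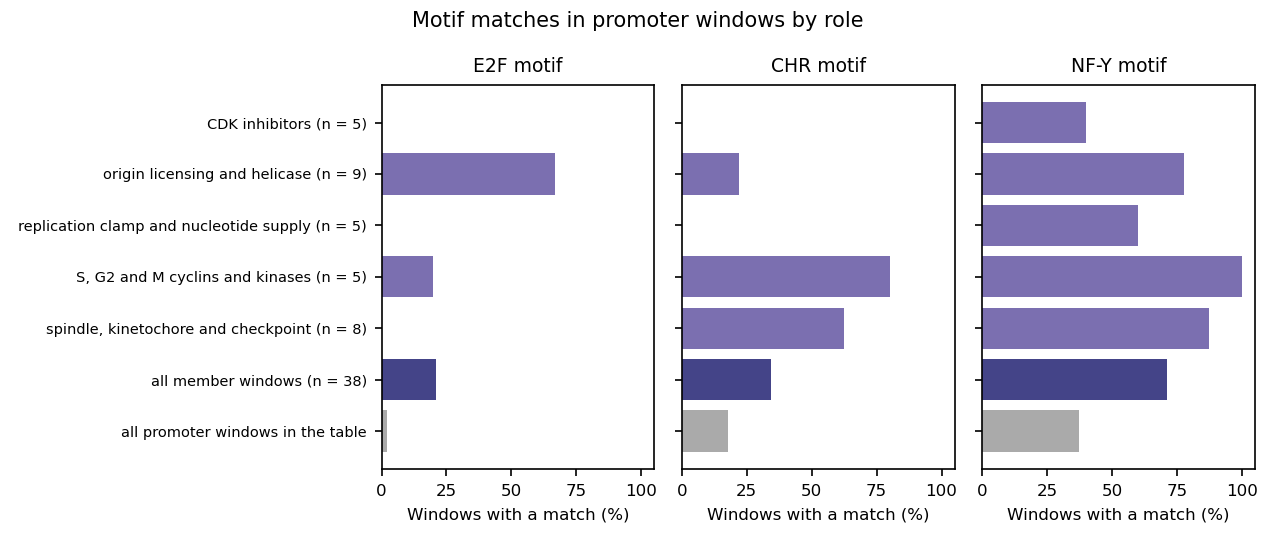
Share of promoter windows (percent, horizontal axis) that hold the letters of each motif, for the roles with at least 5 member windows, for all 38 member windows and for all 32851 windows of the table. The E2F letters are most frequent in the licensing and helicase genes (6 of 9 windows) and the CHR letters in the S, G2 and M genes (4 of 5) and the spindle genes (5 of 8).

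These windows are shown because they hold these arrangements in members whose probe sets were called in the comparison of control ileum with control jejunum. Cdc20, the activator of the anaphase-promoting complex, and Kif11, the kinesin that pushes spindle poles apart, have a CHR match 18 and 19 bases before the start, and CCAAT letters on either strand further upstream (in Cdc20 also downstream of the CHR match). Mcm3, a subunit of the replicative helicase, has 2 E2F matches within the first 50 transcribed bases and 3 CCAAT matches. Capitals mark the matches of the E2F, CHR and NF-Y motifs, and each sequence runs 5′ to 3′ on the gene's strand. The Cdc20 window is chr4:118437294-118437593 on the minus strand, the Kif11 window chr19:37376132-37376431 on the plus strand and the Mcm3 window chr1:20820263-20820562 on the minus strand.
Cdc20: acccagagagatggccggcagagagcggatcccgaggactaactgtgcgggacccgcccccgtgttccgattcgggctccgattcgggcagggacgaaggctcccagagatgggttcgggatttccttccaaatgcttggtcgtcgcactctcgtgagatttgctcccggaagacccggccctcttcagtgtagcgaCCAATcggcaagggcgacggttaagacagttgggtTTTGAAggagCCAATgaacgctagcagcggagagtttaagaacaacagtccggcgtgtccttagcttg
Kif11: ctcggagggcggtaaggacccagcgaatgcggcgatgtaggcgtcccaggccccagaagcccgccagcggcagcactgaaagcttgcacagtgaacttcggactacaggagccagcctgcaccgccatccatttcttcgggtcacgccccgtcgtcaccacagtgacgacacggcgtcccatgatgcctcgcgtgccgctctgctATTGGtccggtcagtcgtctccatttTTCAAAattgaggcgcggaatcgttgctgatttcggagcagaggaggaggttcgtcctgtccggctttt
Mcm3: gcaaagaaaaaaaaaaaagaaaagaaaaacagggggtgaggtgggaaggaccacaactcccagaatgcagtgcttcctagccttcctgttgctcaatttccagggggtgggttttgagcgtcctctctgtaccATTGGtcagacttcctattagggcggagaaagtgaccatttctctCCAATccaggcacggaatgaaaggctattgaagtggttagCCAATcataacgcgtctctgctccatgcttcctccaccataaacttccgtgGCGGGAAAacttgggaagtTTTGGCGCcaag

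Cdkn1a, whose transcript is the member called in the mutant, is shown as well. It encodes the CDK inhibitor p21, and the window of its second start, chr17:29093519-29093818 on the plus strand, holds no match of any of the 4 motifs and so no capitals. The window of its first start holds none either. Nor do the windows of Birc5, Ccne1, Cdk4, E2f1, Tk1 and Tyms and 1 window of Cdkn2c, so this is not particular to Cdkn1a. No match says only that these letters are not in the window.
Cdkn1a: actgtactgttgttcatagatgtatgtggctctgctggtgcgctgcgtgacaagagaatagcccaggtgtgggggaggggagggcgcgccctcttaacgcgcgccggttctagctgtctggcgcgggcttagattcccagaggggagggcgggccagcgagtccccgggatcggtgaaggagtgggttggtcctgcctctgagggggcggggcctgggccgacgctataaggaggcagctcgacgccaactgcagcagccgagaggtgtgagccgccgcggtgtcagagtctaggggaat

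In the first comparison, which asks what loss of Gata4 does within the jejunum, Cdkn1a was higher in mutant jejunum than in control jejunum and no other member was called at an adjusted p under 0.05 (limma, adjusted over all 29307 probe sets). With 1 probe set for each gene (its brightest tested one on average, called its standing probe set), that is 1 of 42 members higher and 0 lower, against 4.39% of all 13830 genes called (2.1% higher and 2.29% lower). At an unadjusted p under 0.05, 1 member was higher and 1 lower, where 1221 and 1309 of 13830 genes were. The members' differences ran from -0.39 to 0.65 with a median of -0.03, against 0.00 over all genes, and 18 of 42 were above 0, against 6930 of 13830 genes. Counting every probe set, 2 of 84 were higher, both of Cdkn1a, and 0 lower, against 3.56% of all probe sets called (1.74% higher and 1.82% lower). Of the 42 genes, 41 lay within 0.5 of 0. The 3 mutant arrays lay beyond the 3 control jejunum arrays for 4 members, Cdkn1a and Cdk2 above and Gmnn and Aurkb below, where 25% of all genes did so. These shares are near or below the background, so they are no result about the members as a group.

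Cdkn1a encodes p21, which binds cyclin-CDK complexes and halts the cycle, and it was measured by 2 probe sets. The probe set with the higher level (1424638_at) stood at 11.37, 11.43 and 11.65 in mutant jejunum, at 11.38, 11.08 and 11.05 in control ileum and at 10.97, 10.65 and 10.88 in control jejunum. All mutant arrays lay above all control jejunum arrays, and the ileum arrays lay between, overlapping the mutant. The mean was 11.48 ± 0.15 in mutant jejunum and 10.83 ± 0.16 in control jejunum (SD, n = 3 each), a rise of 0.65 (95% interval 0.36 to 0.93), or 1.56-fold, with an adjusted p of 0.0211. The other probe set (1421679_a_at) stood at 9.45, 9.41 and 9.32 in mutant jejunum, at 8.84, 8.60 and 8.66 in control ileum and at 8.87, 8.22 and 8.70 in control jejunum. Here both control groups lay together below the mutant, and the rise over control jejunum was 0.80 (0.44 to 1.16), or 1.74-fold, with an adjusted p of 0.0239. The fit treats the 3 groups as sharing 1 spread, and the call was lost in 5 of 20 alternatives for each probe set. Without mutant jejunum array 2 or 3, or control jejunum array 2 or 3, the adjusted p of 1424638_at was 0.0676, 0.0507, 0.0963 and 0.0685 in that order, and 0.0558 with no intensity trend, with differences between 0.56 and 0.76 over the alternatives. For 1421679_a_at the adjusted p was 0.0666 without mutant jejunum array 1, 0.0892 without mutant array 2, 0.0692 without control jejunum array 2 and 0.0664 without control jejunum array 3, and 0.0618 with no scaling between arrays.

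The other 2 CDK inhibitors on the list were not called. Cdkn1b, which encodes p27, stood at 8.07, 8.55 and 8.30 in mutant jejunum, at 8.02, 8.10 and 7.96 in control ileum and at 8.08, 8.40 and 8.33 in control jejunum. Its groups overlapped, with a difference of 0.04 (-0.30 to 0.37) between mutant and control jejunum (adjusted p = 0.943). Cdkn2c, which encodes the Cdk4 and Cdk6 inhibitor p18, stood at 7.19, 7.20 and 7.11 in mutant jejunum, at 7.77, 7.48 and 7.73 in control ileum and at 7.25, 7.47 and 7.17 in control jejunum. The ileum arrays were the highest of the 9 and the 2 jejunal groups overlapped, with -0.13 for mutant over control jejunum (adjusted p = 0.695).

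**Figure D2:**
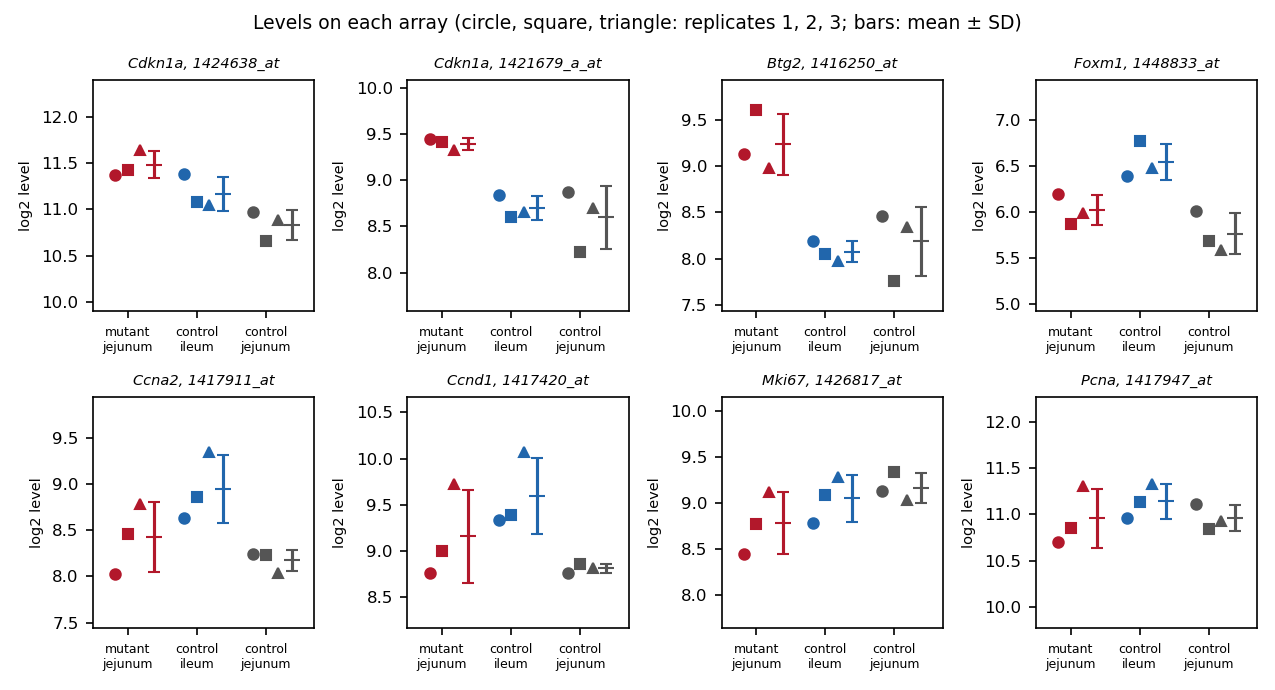
Normalized log2 level (vertical axis, log2 of intensity + 16) of single probe sets on each of the 9 arrays, with mutant jejunum at the left, then control ileum and control jejunum; points are arrays (circle, square and triangle for replicates 1, 2 and 3) and bars are the group mean ± SD, with an axis of equal span in each panel. Both Cdkn1a probe sets are higher in the 3 mutant jejunum arrays than in the 3 control jejunum arrays, while Mki67, Pcna and Ccna2 overlap between these groups.

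The markers of proliferation were not called. Mki67, which encodes the Ki-67 antigen of cycling cells, stood at 8.45, 8.77 and 9.12 in mutant jejunum, at 8.78, 9.09 and 9.28 in control ileum and at 9.13, 9.34 and 9.03 in control jejunum. Its mutant mean was 8.78 ± 0.33 and its control jejunum mean 9.16 ± 0.16 (SD, n = 3 each), a difference of -0.38 (-0.79 to 0.03) with an adjusted p of 0.334. Top2a, the topoisomerase that untangles sister chromatids, stood at 8.63, 8.84 and 9.47 in mutant jejunum, at 8.91, 9.38 and 9.81 in control ileum and at 9.22, 9.23 and 9.19 in control jejunum. In both genes mutant array 1 was lowest and mutant array 3 highest of its group. Array 3 lay within the control jejunum range for Mki67 and above it for Top2a. The Top2a difference was -0.23 (-0.76 to 0.29, adjusted p = 0.686). Intervals of this width hold both no change and a fall of more than 0.5 on the log2 scale.

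Among the 6 genes of the G1 cyclins and kinases the median difference was 0.03. Ccnd1, a D-type cyclin, stood at 8.76, 8.999 and 9.72 in mutant jejunum, at 9.33, 9.39 and 10.07 in control ileum and at 8.76, 8.86 and 8.82 in control jejunum (1417420_at). Mutant array 3 lay far above the other mutant arrays, which sat in or just above the control jejunum range, and the difference of 0.35 (-0.19 to 0.89) had an adjusted p of 0.526. Its probe set 1417419_at stood at 7.56, 8.14 and 8.61 in mutant jejunum and at 7.31, 7.51 and 7.42 in control jejunum, a difference of 0.69 (adjusted p = 0.162) that was called without mutant jejunum array 1 (adjusted p = 0.0367). Ccnd2, a second D-type cyclin, stood at 9.92, 10.30 and 10.28 in mutant jejunum, at 10.71, 10.73 and 10.12 in control ileum and at 10.45, 10.44 and 10.21 in control jejunum (1416122_at), with -0.20 for mutant over control jejunum (adjusted p = 0.619). Its probe set 1416124_at differed by 0.35, without a call. Cdk2, the partner kinase of cyclins E and A, stood at 7.50, 7.52 and 7.56 in mutant jejunum, at 7.61, 7.59 and 8.03 in control ileum and at 7.24, 7.23 and 7.50 in control jejunum. Its mutant arrays lay just above the control jejunum arrays, by 0.21 on average, without a call. Cdk4, Ccne1 and Ccne2 differed by -0.07, -0.06 and 0.13.

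The licensing and helicase genes load the MCM ring onto origins and make it a helicase, and their 10 members had a median difference of -0.13 between mutant and control jejunum. Mcm2, a ring subunit, stood at 8.16, 8.10 and 7.56 in mutant jejunum, at 7.44, 7.90 and 8.00 in control ileum and at 8.34, 8.41 and 8.04 in control jejunum (1434079_s_at). The mutant and control jejunum arrays overlapped, with a difference of -0.32 (-0.77 to 0.12, adjusted p = 0.461). Its other probe set (1448777_at) differed by -0.37 (adjusted p = 0.447) but ordered the arrays otherwise: mutant array 3 was lowest of its group on 1434079_s_at and highest, at 7.70 against 7.11 and 7.22, on 1448777_at. Gmnn encodes geminin, which blocks relicensing after S phase, and stood at 8.46, 8.49 and 8.67 in mutant jejunum, at 8.82, 8.46 and 8.90 in control ileum and at 8.93, 8.74 and 8.93 in control jejunum. The mutant arrays lay below the control jejunum arrays by 0.33 on average, a difference of -0.33 (-0.64 to -0.02) with an adjusted p of 0.270. Cdc6, which loads the ring with Cdt1, stood at 5.99, 5.58 and 6.50 in mutant jejunum, at 6.24, 6.15 and 6.29 in control ileum and at 5.81, 5.64 and 5.75 in control jejunum, levels near the filter of 4.95, and differed by 0.29 (adjusted p = 0.531). On their standing probe sets, Cdt1, Mcm3, Mcm5, Mcm6 and Mcm7 differed by -0.25 to -0.08, and Mcm4 and Cdc45 by 0.14 and 0.10. Probe set 1426653_at of Mcm3 differed by 0.30, without a call.

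Pcna, the sliding clamp of DNA polymerase, stood at 10.71, 10.85 and 11.31 in mutant jejunum, at 10.96, 11.13 and 11.33 in control ileum and at 11.11, 10.84 and 10.93 in control jejunum. The groups overlapped, and the difference between mutant and control jejunum was within 0.01 of 0 (-0.35 to 0.35, adjusted p = 0.994). Rrm1 and Rrm2, the subunits of ribonucleotide reductase, differed by -0.04 and 0.05 on their standing probe sets, and Tk1, thymidine kinase, by -0.15. Probe set 1448127_at of Rrm1 differed by 0.39, without a call. Rrm2 spread widely in the mutant, at 8.09, 8.12 and 9.20, while control ileum stood at 8.24, 8.27 and 8.82 and control jejunum at 8.42, 8.47 and 8.36. As for Top2a, mutant array 3 stood alone at the top of its group.

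The S, G2 and M cyclins and kinases had a median difference of 0.00 over 6 genes and the spindle, kinetochore and checkpoint genes a median of -0.01 over 9. Cdk1, the mitotic kinase, stood at 8.02, 8.33 and 8.62 in mutant jejunum, at 8.62, 8.71 and 9.24 in control ileum and at 8.35, 8.27 and 8.42 in control jejunum. The mutant arrays spread on both sides of the control jejunum arrays, with a difference of -0.02 (-0.44 to 0.39, adjusted p = 0.972). Aurkb, the kinase that corrects attachments at the kinetochore, had the lowest difference of all members on its standing probe set (1424128_x_at). It stood at 6.59, 6.67 and 6.98 in mutant jejunum, at 6.83, 7.39 and 7.64 in control ileum and at 7.24, 7.03 and 7.14 in control jejunum. Its mutant arrays lay below its control jejunum arrays, but the difference of -0.39 (-0.83 to 0.06) had an adjusted p of 0.370, and its other probe set (1451246_s_at) differed by 0.29 (adjusted p = 0.576). Plk1, Aurka and Ccnb2 differed by -0.13, 0.03 and 0.08, and the standing probe sets of the 9 spindle genes by -0.09 to 0.25, with Ube2c highest. Over all 17 tested probe sets of these 9 genes the differences ran from -0.57 to 0.35 (the latter 1452315_at of Kif11), without a call.

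In the second comparison, between control segments of independent mice, the members were tilted towards the ileum: 35 of 42 stood above 0, against 7271 of 13830 genes, and their median difference was 0.20, against 0.03 over all genes, though with no scaling between arrays that median was -0.24, against -0.40 over all probe sets. With arrays centred on their medians it was 0.12, against -0.04 over all probe sets, with 24 of 42 members above 0. Few of them were called. Foxm1 and Ccna2 were higher in control ileum and no member was lower, which is 2 of 42 against 17.9% of all genes called (8.79% higher and 9.12% lower). Counting every probe set, 9 of 84 were called higher and 0 lower, against 16.2% of all probe sets called (8.36% higher and 7.86% lower), and these 9 belonged to Foxm1 (2), Ccna2, Ccnd1, Ccnd2, Mcm3, Rrm1, Cdc20 and Kif11. The ileum arrays did not overlap the control jejunum arrays for 12 members above and 1 below, where 21.2% of all genes did so above and 18.9% below. Without control ileum array 3 the median was 0.09 with 25 members above 0 and 1 called, and without control ileum array 1 it was 0.32 with 38 above 0 and 3 called. The control jejunum arrays are shared with the first comparison.

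**Figure D3:**
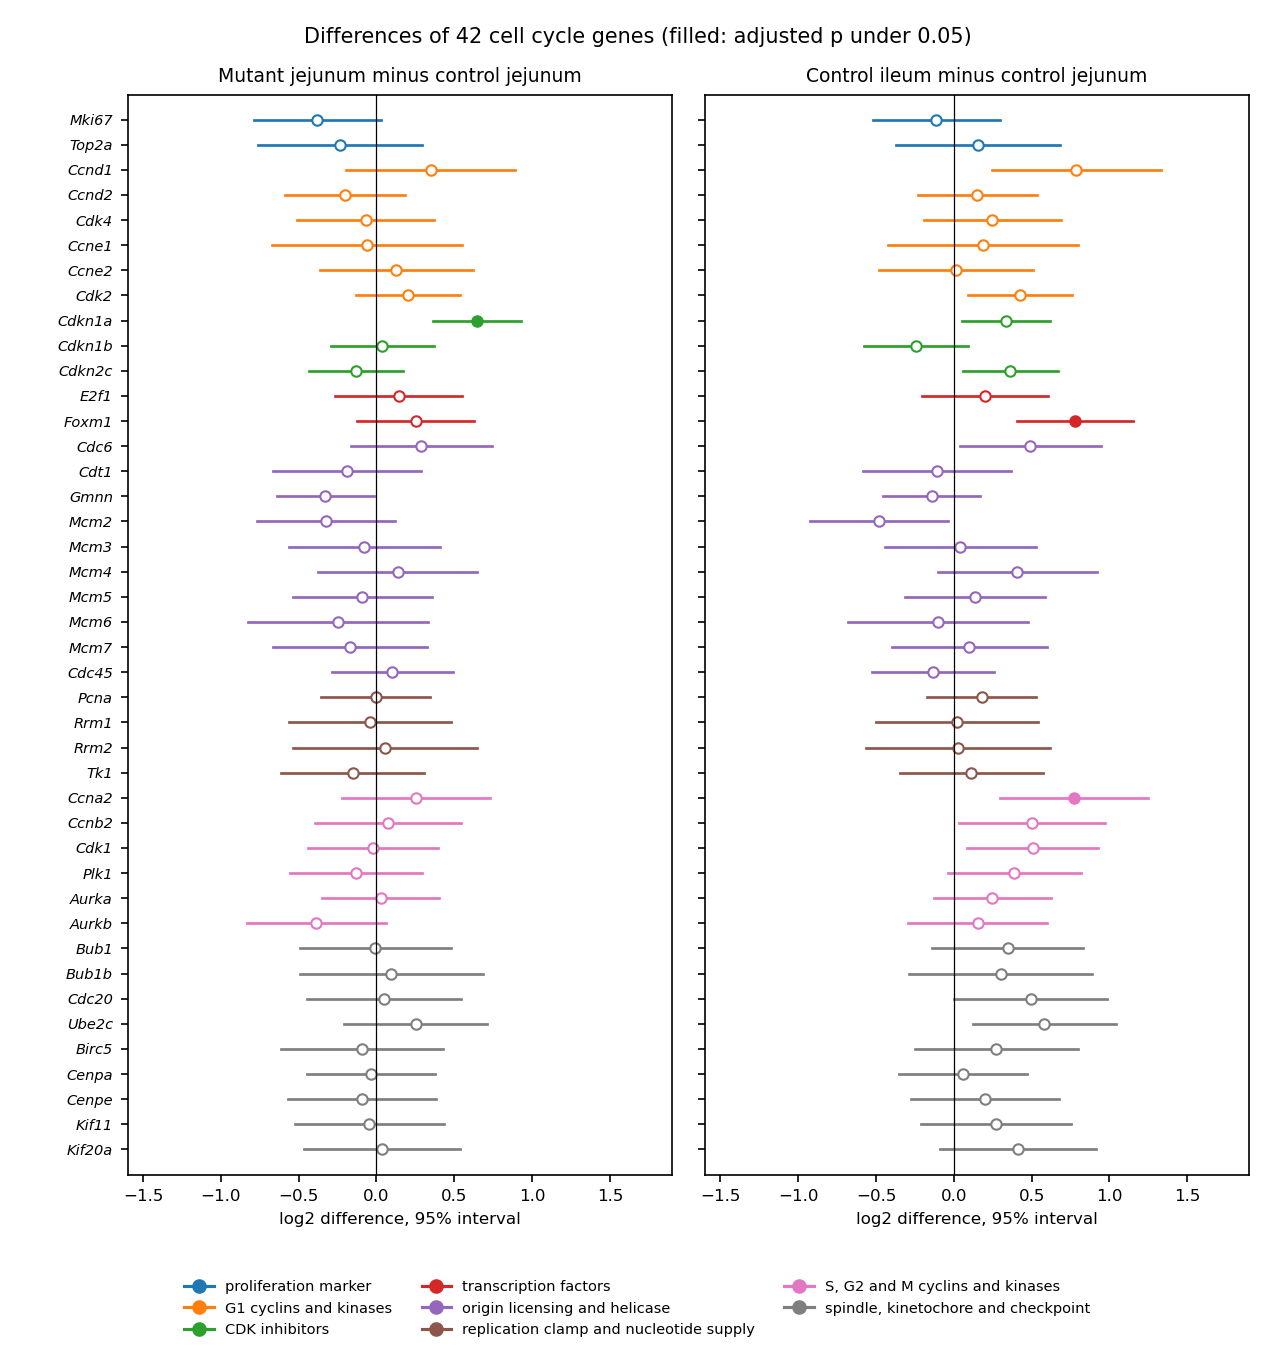
Log2 difference of each of the 42 tested members with its 95% interval (horizontal axis, log2 of intensity + 16), for mutant jejunum over control jejunum and for control ileum over control jejunum, in order of role. Differences lie on both sides of 0 in the mutant, with Cdkn1a furthest right. On quantile-normalized values 35 of 42 lie above 0 in the ileum. With no scaling between arrays the ileum median is -0.24, against -0.40 over all probe sets.

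Foxm1 encodes the forkhead factor of G2 and M phase genes. It stood at 6.19, 5.87 and 5.99 in mutant jejunum, at 6.38, 6.76 and 6.48 in control ileum and at 6.01, 5.68 and 5.59 in control jejunum (1448833_at). The ileum arrays lay above every jejunal array of either genotype. The mean was 6.54 ± 0.20 in control ileum and 5.76 ± 0.22 in control jejunum (SD, n = 3 each), a rise of 0.78 (0.40 to 1.15), or 1.72-fold, with an adjusted p of 0.0109. The call was lost with no scaling between arrays (adjusted p = 0.183) and kept in the other 19 alternatives. Probe set 1417748_x_at was called too, with a rise of 0.67 (adjusted p = 0.0195). That call was lost with no scaling between arrays (0.222) and without control ileum array 2 (0.0717) or 3 (0.0648) or control jejunum array 3 (0.0747). Probe set 1448834_at was not called, at 0.14 (adjusted p = 0.625). E2f1, the other transcription factor, differed by 0.20 without a call. In mutant over control jejunum, Foxm1 differed by 0.25 on 1448833_at and by 0.39 on 1417748_x_at. Over the 5 tested probe sets of Foxm1 and E2f1 that comparison ran from -0.39 to 0.41, without a call.

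Ccna2, the cyclin of S and G2 phase, stood at 8.03, 8.46 and 8.79 in mutant jejunum, at 8.63, 8.85 and 9.35 in control ileum and at 8.24, 8.23 and 8.04 in control jejunum (1417911_at). The ileum arrays lay above the control jejunum arrays and the mutant arrays reached from one range into the other. The mean was 8.94 ± 0.37 in control ileum and 8.17 ± 0.12 in control jejunum (SD, n = 3 each), a rise of 0.77 (0.30 to 1.24), or 1.71-fold, with an adjusted p of 0.0332. The call did not hold with no scaling between arrays (adjusted p = 0.416) or with arrays centred on their medians (0.0768), nor without control ileum array 2 (0.0686) or 3 (0.108), nor without control jejunum array 1 (0.0625), 2 (0.0775) or 3 (0.109). Its other probe set (1417910_at) gave 0.74 with an adjusted p of 0.148. The other 5 genes of this role all stood above 0 on quantile-normalized values, from 0.15 for Aurkb to 0.51 for Cdk1 (0.09 to 0.92, adjusted p = 0.0953). Each of the 5 fell below 0 in some alternative. The ileum arrays of Cdk1 lay above its control jejunum arrays. The median over the role was 0.45, and -0.52 for mutant jejunum over control ileum.

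All 9 spindle, kinetochore and checkpoint genes stood above 0 in control ileum over control jejunum on quantile-normalized values, with a median of 0.30, and none of their standing probe sets was called (0 of 9 higher or lower). Ube2c, the ubiquitin-conjugating enzyme of anaphase, stood at 8.70, 9.08 and 9.32 in mutant jejunum, at 8.93, 9.41 and 9.75 in control ileum and at 8.88, 8.75 and 8.72 in control jejunum. The ileum arrays lay above the control jejunum arrays, with a difference of 0.58 (adjusted p = 0.0814). Cdc20, whose promoter is printed above, stood at 8.57, 8.79 and 8.88 in mutant jejunum, at 8.88, 9.01 and 9.73 in control ileum and at 8.69, 8.51 and 8.46 in control jejunum on probe set 1416664_at. It rose by 0.66, or 1.57-fold, with an adjusted p of 0.0485 that passed the threshold in only 7 of 20 alternatives, and its standing probe set gave 0.49 (adjusted p = 0.163). Kif11 stood at 6.17, 6.25 and 6.38 in mutant jejunum, at 6.28, 6.56 and 6.89 in control ileum and at 6.15, 5.72 and 5.88 in control jejunum on 1452315_at. It rose by 0.66, or 1.58-fold (adjusted p = 0.0321), and its standing probe set gave 0.27. The call was lost without control ileum array 2 (0.0787) or 3 (0.107) or control jejunum array 2 (0.114) or 3 (0.0922), with no scaling between arrays (0.408), with arrays centred on their medians (0.0574) and with no filter (0.0601). Bub1 and Bub1b, the checkpoint kinases, differed by 0.35 and 0.30, and Kif20a, Birc5, Cenpe and Cenpa by 0.41, 0.27, 0.20 and 0.06.

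The G1 cyclins and kinases stood above 0 in the ileum for 6 of 6 genes on quantile-normalized values, with a median of 0.22. Most of their standing probe sets fell below 0 in some alternative. Ccnd1 rose on probe set 1417419_at, which stood at 8.26, 8.44 and 8.84 in control ileum and at 7.31, 7.51 and 7.42 in control jejunum. The rise of 1.10 (0.58 to 1.63), or 2.15-fold, had an adjusted p of 0.0100, and the call was lost with no scaling between arrays (0.0665). Its brighter probe set 1417420_at, given above, averaged 9.60 ± 0.41 in control ileum and 8.81 ± 0.05 in control jejunum (SD, n = 3 each), a difference of 0.79 with an adjusted p of 0.0522, and 1448698_at gave 0.73 (adjusted p = 0.0896). For Ccnd2, 1 of 7 probe sets was called: 1416124_at stood at 7.40, 7.44 and 6.75 in control ileum and at 6.44, 5.98 and 6.37 in control jejunum, a rise of 0.93, or 1.91-fold (adjusted p = 0.0163). That call was lost without control ileum array 1 (0.0583) or 2 (0.0665) or control jejunum array 2 (0.0677), and with no scaling between arrays (a difference of 0.48, adjusted p = 0.0947). The other 6 Ccnd2 probe sets differed by -0.29 to 0.42. Cdk2 differed by 0.42 (0.09 to 0.76, adjusted p = 0.0822), with the ileum arrays above the control jejunum arrays.

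The licensing and helicase genes were evenly split: 5 of 10 stood above 0 in the ileum, with a median of -0.03. Mcm2 had the lowest difference of all members, -0.48 (-0.92 to -0.04, adjusted p = 0.128), and its other probe set -0.70 (adjusted p = 0.0533), and the ileum arrays of Mcm2 lay below its control jejunum arrays. Cdc6 and Mcm4, another ring subunit, stood at 0.49 and 0.41, with the ileum arrays above the control jejunum arrays and without a call. Mcm3 was called on 1 of 5 probe sets: 1426653_at stood at 6.43, 6.48 and 6.60 in mutant jejunum, at 6.62, 6.61 and 6.74 in control ileum and at 6.36, 6.03 and 6.22 in control jejunum. Its rise of 0.46 had an adjusted p of 0.0459, which passed in 8 of 20 alternatives, and the other 4 probe sets differed by -0.04 to 0.28. Rrm1 was likewise called on 1448127_at alone, which stood at 8.05, 8.12 and 8.52 in control ileum and at 7.59, 7.18 and 7.52 in control jejunum. That rise was 0.80, or 1.74-fold (adjusted p = 0.0203, but 0.0725 without control ileum array 3, 0.0841 without control jejunum array 2 and 0.291, at a difference of 0.30, with no scaling between arrays), while the standing probe set of Rrm1 gave 0.02. Pcna differed by 0.18 (-0.17 to 0.53, adjusted p = 0.480) and Mki67 by -0.11 (-0.52 to 0.29, adjusted p = 0.723).

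**Figure D4:**
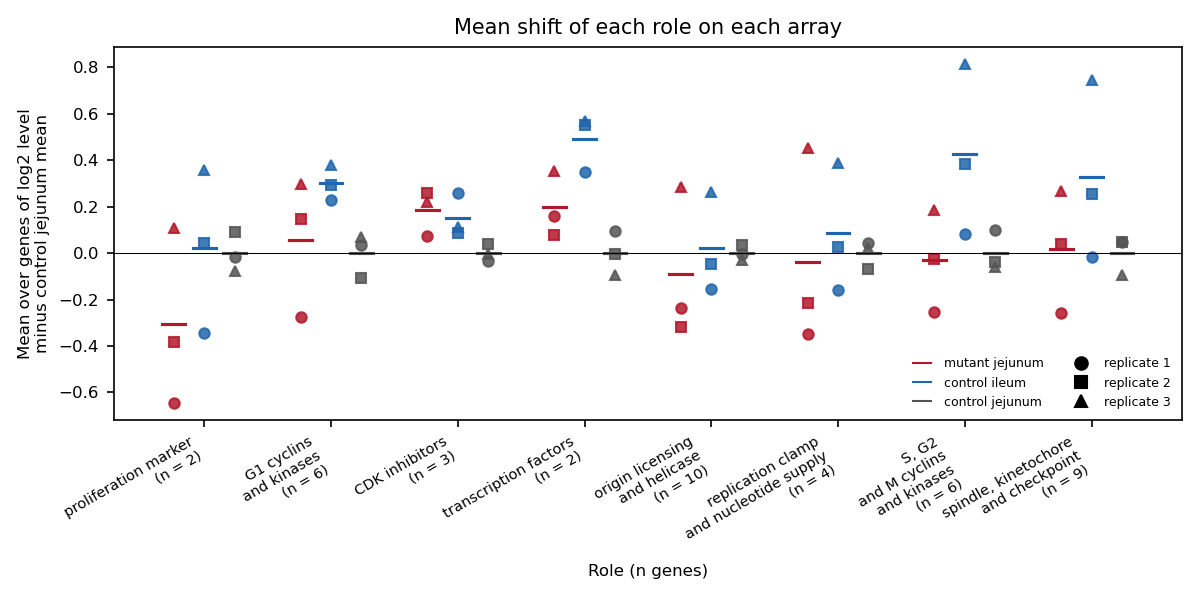
Mean log2 deviation of each role's genes from the control jejunum mean (vertical axis) on each of the 9 arrays, with mutant jejunum at the left, then control ileum and control jejunum; short lines are group means. Array 3 is highest and array 1 lowest among mutant jejunum arrays for most roles, and likewise among control ileum arrays, where the S, G2 and M genes reach 0.81 on quantile-normalized values.

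In the third comparison, between mutant jejunum and control ileum, no member was called on its standing probe set (0 higher and 0 lower of 42, where 3.67% of all genes were called, 1.97% higher and 1.7% lower), and 1 was higher and 6 lower at an unadjusted p under 0.05, where 1297 and 1334 of 13830 genes were. The median was -0.27, with 6 of 42 above 0, although with no scaling between arrays it was 0.25, against 0.41 over all probe sets. With arrays centred on their medians it was -0.06, against 0.1 over all probe sets, with 15 of 42 members above 0. All 6 S, G2 and M genes and all 9 spindle genes stood below 0 on quantile-normalized values. The groups did not overlap for 4 members, Foxm1, Cdkn2c, Cdk2 and Plk1, all lower in mutant jejunum, where 22.6% of all genes did so. Foxm1 differed by -0.53 (adjusted p = 0.144) and Cdkn2c by -0.49 (adjusted p = 0.0917). Over all 84 probe sets, 1 was called, against 2.65% of all probe sets (1.39% higher and 1.27% lower): 1421679_a_at of Cdkn1a was higher in mutant jejunum than in control ileum by 0.70, or 1.62-fold, with an adjusted p of 0.0499, which passed in 10 of 20 alternatives. The other Cdkn1a probe set gave 0.31 (adjusted p = 0.256). In this direct test, then, Cdkn1a was called above both control segments on 1 probe set and above control jejunum alone on the other.

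The members moved together from mouse to mouse within the mutant jejunum and control ileum groups. Averaged over the 42 members, the deviation from the control jejunum mean was -0.24, -0.07 and 0.28 on mutant jejunum arrays 1, 2 and 3. It was 0.01, 0.18 and 0.48 on the control ileum arrays, and 0.03, -0.00 and -0.03 on the control jejunum arrays. Array 3 was the highest of its group for 32 of 42 members in mutant jejunum and for 35 of 42 in control ileum, against 40.1% and 37.9% of all genes. Array 1 was the lowest of its group for 34 members in mutant jejunum and 31 in control ileum. The share of all genes was not taken for this count. The mice were independent, and the labels do not say whether same-numbered arrays of different groups were handled together. The group means of this deviation were -0.01 ± 0.26 in mutant jejunum, 0.22 ± 0.24 in control ileum and 0.00 ± 0.03 in control jejunum (SD, n = 3 each), so the mutant and control jejunum means lay closer than the spread of the mutant.

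Single members spread accordingly. The median SD over members was 0.31 in mutant jejunum, 0.29 in control ileum and 0.14 in control jejunum, against 0.20, 0.18 and 0.16 over all genes. By role, the licensing genes averaged -0.24, -0.32 and 0.28 on the mutant arrays and -0.16, -0.05 and 0.26 on the ileum arrays. The clamp and nucleotide genes averaged -0.35, -0.22 and 0.45 on the mutant arrays and -0.16, 0.03 and 0.39 on the ileum arrays. The S, G2 and M genes averaged -0.25, -0.03 and 0.19 on the mutant arrays and 0.08, 0.39 and 0.81 on the ileum arrays. In the licensing genes array 2 was thus the lowest in the mutant, as in the transcription factors (0.16, 0.08 and 0.35). In the CDK inhibitors array 3 was not the highest in either group. They averaged 0.08, 0.26 and 0.22 on the mutant arrays and 0.26, 0.09 and 0.11 on the ileum arrays. Without mutant jejunum array 3 the members' median for mutant over control jejunum was -0.15 with 11 of 42 above 0, and without mutant jejunum array 1 it was 0.12 with 30 above 0. The sign of that median thus depended on 1 mouse.

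**Figure D5:**
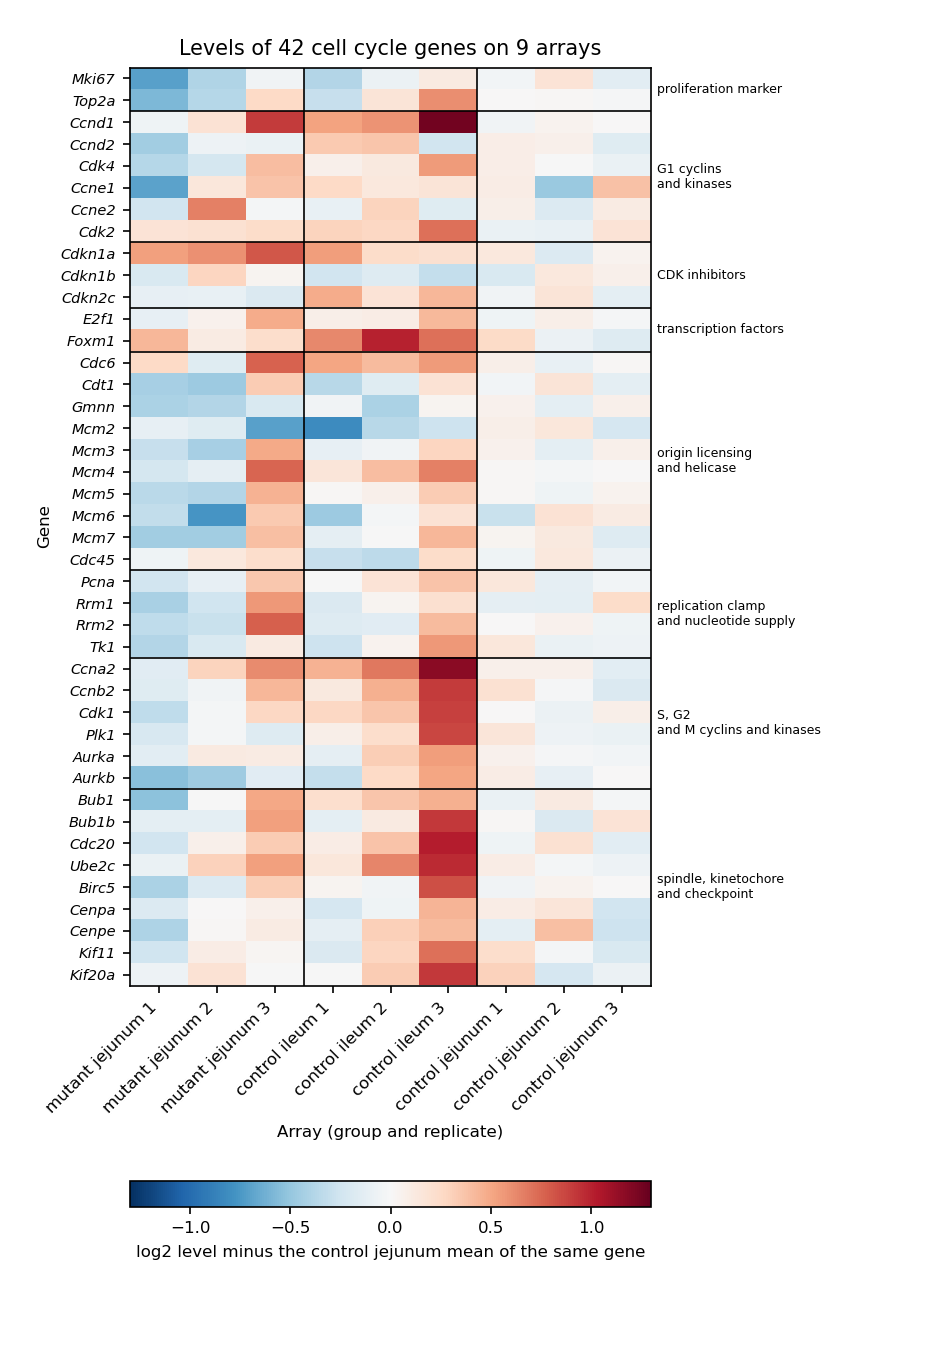
Deviation of each of the 42 members (rows, by role) from its control jejunum mean on each of the 9 arrays (columns, mutant jejunum at the left, then control ileum and control jejunum), as a log2 colour scale. Columns for array 3 of mutant jejunum and of control ileum are raised over most rows, and those for array 1 of mutant jejunum lowered.

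Some cell type markers moved with these arrays. Their part in the members' values, and that of whole-array measures, was not tested. Trimmed mean intensity before scaling was 168.5 ± 18.3 in mutant jejunum, 111.8 ± 13.2 in control ileum and 163.4 ± 12.0 in control jejunum (SD, n = 3 each), and mutant jejunum array 3 had the lowest array weight of the 9, at 0.384. On arrays 1, 2 and 3 the trimmed mean was 178.2, 179.8 and 147.4 in mutant jejunum and 96.79, 121.6 and 117 in control ileum. It was thus lowest on array 3 in the mutant and on array 1 in the ileum. The summed intensity of 15 crypt stem cell markers was 5909, 5820 and 8285 in mutant jejunum, 7077, 8391 and 10240 in control ileum and 6492, 9072 and 7467 in control jejunum. Array 3 was thus the highest of its group for this list as well in the mutant and the ileum. The 8 villus enterocyte markers ran the other way, at 72280, 63200 and 58720 in mutant jejunum, 53650, 51160 and 45580 in control ileum and 81260, 79280 and 81150 in control jejunum. The list holds Fabp1 and Apoa4, genes of the proximal gut. Of all genes, 4.39% were called between mutant and control jejunum and 17.9% between control ileum and control jejunum. Of the crypt markers, 0 of 15 were called between mutant and control jejunum (median -0.06), and 4 were higher and 0 lower in control ileum over control jejunum (Prom1, Ephb3, Tnfrsf19 and Sox9, median 0.47). Of the villus markers, 1 of 8, Mttp, was lower in mutant jejunum than in control jejunum, and 4 were lower and 0 higher in control ileum.

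Markers of other cells in the gut wall are given beside 17.9% of all genes called between control ileum and control jejunum and 4.39% between mutant and control jejunum. Of 8 smooth muscle markers, 7 were higher in control ileum than in control jejunum (median 0.96) and 0 were called in mutant over control jejunum. Their mean deviation was -0.22, 0.11 and -0.58 on mutant jejunum arrays 1, 2 and 3, 1.13, 0.99 and 0.75 on the control ileum arrays and -0.33, 0.33 and 0.00 on the control jejunum arrays. They were thus lowest on array 3 in mutant jejunum and control ileum, where most members were highest. Of 9 T cell markers, 4 were lower in control ileum (median -0.87) and 0 were called in the mutant (median 0.29), though their summed intensity was 6841, 6568 and 10370 in mutant jejunum, 1591, 3809 and 4299 in control ileum and 7936, 6186 and 5899 in control jejunum. Of 9 tested B and germinal centre cell markers, 2 were lower in control ileum and 0 were called in the mutant. Of 6 plasma cell markers, 1 was higher and 2 lower in control ileum and 1, Sdc1, was higher in the mutant. Of 4 Paneth cell markers, 3 were higher in control ileum and 0 were called in the mutant, and of 7 goblet cell markers 3 were higher and 1 lower in control ileum and 1, Spdef, was higher in the mutant. In mutant jejunum over control ileum, where 3.67% of all genes were called, 6 of 8 smooth muscle markers were lower (median -1.11), 4 of 9 T cell markers higher (median 1.12) and 3 of 4 Paneth cell markers lower (median -0.97). There 3 of 8 villus markers were higher and 1 lower, 1 of 7 goblet cell markers was lower, and 0 of the crypt, B cell and plasma cell markers were called.

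Other genes of the same pathways gave a like picture. Of 42 tested further replication genes, 0 were called in mutant jejunum over control jejunum (median 0.01). In that comparison 2.1% of all genes were called higher and 2.29% lower. In control ileum over control jejunum, 8.79% of all genes were called higher and 9.12% lower. There 3 of the further replication genes were higher and 0 lower (median 0.12). These were Pold2, a subunit of DNA polymerase delta (0.83, adjusted p = 0.0187), and the origin recognition subunits Orc1 (0.67, adjusted p = 0.0223) and Orc2 (0.52, adjusted p = 0.0451). Of 49 tested further mitosis genes, 0 were called in the mutant (median -0.08). In control ileum 3 were higher and 0 lower (median 0.28), and 41 of 49 stood above 0, against 7271 of 13830 genes. Cks2, a CDK-binding subunit, stood at 9.05, 9.72 and 10.50 in mutant jejunum, at 9.94, 10.18 and 10.36 in control ileum and at 8.96, 9.05 and 8.87 in control jejunum. Its ileum arrays lay well above its control jejunum arrays (1.20, adjusted p = 0.0153) and its mutant arrays covered the whole span between. The other calls were Ndc80, a kinetochore subunit (0.81, adjusted p = 0.0413), and Cdca8, borealin of the chromosomal passenger complex (0.68, adjusted p = 0.0421). The 6 calls named here were each lost with no scaling between arrays and without control ileum array 3 or control jejunum array 3, with adjusted p-values of 0.0535 to 0.673 over these settings. The calls of Ndc80, Orc2 and Cdca8 were lost in 13, 12 and 10 of 20 alternatives.

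Among 32 tested further cell cycle regulators, 2 were higher and 0 lower in mutant jejunum than in control jejunum, and the median was -0.02. Of all genes, 2.1% were called higher and 2.29% lower there. Btg2, an antiproliferative gene, stood at 9.13, 9.61 and 8.98 in mutant jejunum, at 8.19, 8.05 and 7.97 in control ileum and at 8.46, 7.76 and 8.34 in control jejunum. The mutant arrays lay above all 6 control arrays. The mean was 9.24 ± 0.33 in mutant jejunum and 8.19 ± 0.37 in control jejunum (SD, n = 3 each), a rise of 1.05, or 2.07-fold, with an adjusted p of 0.0198, and the rise over control ileum was 1.16 (adjusted p = 0.0171). Over control ileum the adjusted p was 0.0553 without mutant jejunum array 1, 0.0505 without mutant array 2, 0.0726 without control ileum array 2 and 0.0504 without control ileum array 3. Against control jejunum it was 0.0803 without mutant jejunum array 2, 0.0699 without control jejunum array 2 and 0.0544 without control jejunum array 3, and the second probe set of Btg2 gave 0.35 (adjusted p = 0.326). E2f5, an E2F factor of the repressor class, stood at 7.96, 8.07 and 8.00 in mutant jejunum, at 8.31, 8.15 and 8.07 in control ileum and at 7.22, 7.33 and 7.18 in control jejunum. Both other groups lay above control jejunum, by 0.77 in mutant jejunum (adjusted p = 0.00673) and 0.93 in control ileum (adjusted p = 0.000618). In control ileum over control jejunum, Cdkn2b and Cdkn2d, which encode the Cdk4 and Cdk6 inhibitors p15 and p19, were also higher (0.98, adjusted p = 0.00176, and 0.62, adjusted p = 0.0447), and Mdm2, a ubiquitin ligase, was lower (-0.58, adjusted p = 0.00712). Counting E2f5, 3 of the 32 regulators were higher in control ileum and 1 lower, against 8.79% and 9.12% of all genes. With no scaling between arrays the ileum calls of E2f5, Cdkn2b and Cdkn2d were lost (adjusted p = 0.0508, 0.131 and 0.649). The Cdkn2d call was lost in 11 of 20 alternatives, among them no filter (0.0674), no intensity trend (0.0536) and 6 that leave out 1 array (0.0560 to 0.145).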

How the data were processed

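Total RNA of 9 mice was hybridized to 9 arrays, 3 per group, after Affymetrix one-cycle labelling with biotin, per the labels' protocols. The deposited table holds 1 linear intensity for each of 45101 probe sets and array, made by the authors with GCOS, the Affymetrix scanner software, per the submitters' processing notes, whose version and settings the notes leave out. Groups come from the sample titles, and no batch is given there.

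The 64 array controls were left out, and log2(intensity + 16) was quantile-normalized, since the intensities were not on a common scale. Quantile normalization hides any shift shared by all transcripts. Probe sets above the 40th percentile of all values (4.953) on at least 3 of 9 arrays went into limma (version 3.58.1, R 4.3.3): 1 lmFit of all 9 arrays, eBayes with an intensity trend, two-sided tests and Benjamini-Hochberg adjustment over 29307 probe sets. A call is an adjusted p under 0.05. The number of arrays limits the precision, and array correlations ran from 0.951 to 0.985.

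The members and lists were chosen with earlier results of these data known, so counts and medians of lists carry no test. A gene is represented by its tested probe set with the highest mean over 9 arrays, called its standing probe set. Names come from the probe annotation, which gives 1 gene for 34945 probe sets, several for 932 and none for 9160. Of these, 34741 matched the RefSeq table (GRCm38.p6) and no symbol changed. Full values are given for members called in any comparison, for 10 members fixed by name and for the 3 largest and 3 smallest differences in the first 2 comparisons; a few more were picked as examples after their values were seen. The fit was run on simulated data with independent normal values and 1 spread for each probe set in all groups. That simulation does not cover genes that move together within a group, or groups of unlike spread. Same-numbered arrays of different groups correlated at -0.073 to 0.165 after removal of group means, and differently numbered ones at -0.189 to 0.194. With so few arrays this cannot tell whether same-numbered arrays were handled together. Alternatives were other pseudocounts, scalings, filters and variance models, array weights, a replicate block and each array left out.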

Additional observations from a re-analysis of the deposited data

How the results depend on the processing

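Over 183 single-gene differences under up to 20 alternatives each, 3487 of 3654 recomputed values kept their status, called or not called. Of the rest, 139 lost a call, 28 gained one and 0 reversed a called direction. Most of the 183 differences were not called in the main fit, so the 3487 are not a count of calls that held. The cause of the lost calls was not tested. With no scaling between arrays, 10632 probe sets were called between control ileum and control jejunum, against 4752 (5.82% of calls higher, against 51.5%), 0 members were higher and 6 lower, and the members' median was -0.24. Between mutant jejunum and control ileum that setting gave 8497 calls, against 778 (98.3% higher, against 52.2%), 3 members higher and a median of 0.25, and between mutant and control jejunum 659, against 1044. Median centring gave 36.7%, 79.1% and, for mutant over control jejunum, 62% higher (against 48.9%), with 1184 calls between mutant jejunum and control ileum. The members' median there was -0.06, against 0.1 over all probe sets. In control ileum over control jejunum it was 0.12, against -0.04 over all probe sets. That setting gave 1 member higher between mutant jejunum and control ileum and 1 higher in control ileum over control jejunum. Array weights gave 1998 calls for mutant over control jejunum, 1680 for mutant jejunum over control ileum and 4 members higher in control ileum; the fit of the 2 groups alone gave 332 calls for mutant jejunum over control ileum and 4 members higher in control ileum over control jejunum. With no intensity trend, 0 members were called in the mutant. Counting all probe sets gave 2 higher in mutant over control jejunum, 9 in control ileum over control jejunum and 1 in mutant jejunum over control ileum.

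The mice were independent, and a replicate block gave 4 members higher in control ileum over control jejunum, against 2. Leaving out 1 array gave 400 to 1007 calls for mutant over control jejunum, 2862 to 5954 for control ileum over control jejunum and 199 to 1049 for mutant jejunum over control ileum. Members called higher ran from 0 to 1, from 1 to 4 and stayed at 0 in that order of comparisons. The members' median ran from -0.15 to 0.12, from 0.09 to 0.32 and from -0.43 to -0.12. The number of arrays, 3 a group, limits the precision of every interval. Dim members such as Foxm1, Cdc6 and Tyms lie near background, where intensity + 16 compresses differences.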
